A study of Mus musculus with 6 samples.

Results

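The secretory machinery examined here consists of 40 mouse genes, listed by name, whose proteins carry new polypeptides into the endoplasmic reticulum (ER) and move cargo between the ER and the Golgi apparatus. They encode the targeting and translocation apparatus, the translocon-associated protein (TRAP) complex, signal peptidase, the COPII coat and its assembly factors, the COPI coat, cargo receptors, KDEL receptors, and tethers and golgins. Each gene was represented by its brightest probe set, by mean signal over all 6 arrays, among the probe sets annotated to that gene alone. Of the 40 genes, 39 had such a probe set, and all 39 were bright enough to be tested, among 12715 genes tested in all. The only probe set of Sec61g, a small subunit of the translocation channel, is annotated to several genes, so Sec61g has no value here.

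RNA of primary chondrocytes was hybridized to Affymetrix mouse genome arrays, 3 for the wild type and 3 for Slc39a13 knockout (Slc39a13-KO) mice. Slc39a13 encodes a zinc transporter of the Golgi, and the knockout line carries a Neo cassette in place of internal exons, introduced through R1 embryonic stem cells. The cells were freed by collagenase from rib cages of newborn mice and strained, and no sort is described. Neither the labels nor the methods used here say whether the arrays of a group came from separate mice, so p-values measure the spread between arrays, which may in part be technical.

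Collagens and proteoglycans of cartilage are made on ribosomes bound to the ER, enter through the Sec61 channel and lose their signal peptide inside. COPII vesicles then carry them toward the Golgi, and COPI vesicles bring escaped ER residents and cargo receptors back. Chondrocytes secrete matrix in large amounts, and loss of COPII subunits such as Sec23a or Sec24d is known to disturb skeletal development.

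Signals are the deposited values on a linear scale. Differences are log2 fold changes, KO minus wild type, of log2(signal + 7.96), which understates changes of dim genes. The p-values of limma were adjusted by Benjamini-Hochberg over every tested gene, and a gene passed at an adjusted p under 0.05. Signals of different probe sets depend on the probes as well as on the RNA, so an order of brightness is one of signals and not of RNA levels between genes.

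The signal of Slc39a13 was 901, 1081 and 991 in wild-type cells and 100, 196 and 165 in KO cells. The log2 fold change was -2.67 (adjusted p = 0.000195, standard error 0.22). Where this probe set lies relative to the deleted exons is not known. KO replicate 1 stood apart: its correlations with the other arrays were 0.929 to 0.933, against 0.949 to 0.966 among the other 5. Its median signal was 108, while the medians of the other arrays lay between 80.7 and 88.4. One array of each group (wild-type replicate 3 and KO replicate 2) had high Xist and low Y-linked signals, so each group held arrays of both sexes. The arrays of a group thus did not all come from a single animal.

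Markers of cell types moved with the genotype. Over all tested genes 4.64% were higher and 4.68% lower. Of 13 chondrocyte markers, all of which were tested, 6 rose, 0 fell and 7 did not pass. The log2 fold change lay above 0 for 10 of them and below 0 for 3, down to -0.40. Their summed signal was 116896 to 143011 on wild-type arrays and 168671 to 233588 on KO arrays. Acan, which encodes the main proteoglycan of cartilage, had a log2 fold change of 0.91 and Col11a2, a minor fibrillar collagen, 0.91, followed by Comp with 0.76 and Cnmd with 0.57. Of 11 tested mesothelial markers 10 fell, with a median log2 fold change of -2.51, and their summed signal was 5363 to 9124 on wild-type arrays and 743 to 1222 on KO arrays. Upk1b (-4.38), Krt19 (-3.60), Msln (-3.09) and Upk3b (-3.09) fell the most in this list. Of 7 tested fibroblast markers 4 rose (Col1a1 by 0.69, Lum by 0.64, Col1a2 by 0.59 and Col3a1 by 0.52). The other 2 that passed, Pdgfra (-0.51) and Thy1 (-0.49), fell and are named because they are so few. The summed fibroblast signal was 33697 to 40717 on wild-type arrays and 47361 to 62383 on KO arrays. Among 6 tested macrophage markers 0 rose and 1 fell (Cd14, -1.55), with 3 above 0 and 3 below. Their summed signal overlapped, at 641 to 861 on wild-type arrays and 605 to 887 on KO arrays. Among 5 skeletal muscle markers 1 rose (Tnnt3, 1.17) and 1 fell (Acta1, -0.72), with 2 above 0 and 3 below. Their summed signal was 1930 to 2060 on wild-type arrays and 2220 to 2647 on KO arrays. The 1 tested endothelial marker did not pass. In bulk cultures, fewer cells of a type and less RNA per cell cannot be told apart. No marker value was 0 on any array. The part of cell composition in the differences given for the secretory genes was not tested.

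Of the 39 tested secretory genes, 11 passed as higher in KO cells, none as lower (0), and 28 showed no call. The genes that rose were Ssr1, Ssr2 and Ssr3 of the TRAP complex, the signal peptidase subunit Spcs3, the COPII genes Sec31a, Sar1a and Sar1b, the COPI genes Copa and Cope, the cargo receptor Lman1 and the KDEL receptor Kdelr2. Over all 12715 tested genes, 4.64% were higher and 4.68% lower. Because 29 of the 39 lay in the brightest 10% of the tested genes, the count was also read against these, where 9.91% were higher and 8.88% lower. At an unadjusted p under 0.05 limma had 19 secretory genes higher and 1 lower (Sec24c), and the methods' t-test had 0 lower after adjustment. The share of all tested genes at this unadjusted threshold is not given here, so the 19 cannot be read against it. The increases were small. The log2 fold changes of the 39 genes ran from -0.27 to 0.48 with a median of 0.18, against a median of 0.01 over all tested genes.

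The direction was shared more widely than the calls. In 35 of 39 genes the log2 fold change lay above 0, and in 4 it lay below. Of all 12715 tested genes, 6541 lay above 0 and 6174 below. All KO arrays lay above all wild-type arrays for 23 genes, whereas this held for 16.0% of all tested genes. All KO arrays lay below all wild-type arrays for 1 gene, Sec24c, and for 14.9% of all tested genes. Measured against the wild-type mean of each gene, the median deviation of the 39 genes was 0.22, 0.18 and 0.15 (log2) on KO replicates 1, 2 and 3, and -0.03, 0.01 and 0.02 on their wild-type counterparts. KO replicate 1, the array that stood apart, had the highest KO value for 18 of the 39 genes and for 7 of the 11 that passed. How often it was the highest KO array over all tested genes is not given here, so these counts cannot be read against that share. Over all tested genes the median deviation was 0.053, 0.003 and 0.011 on KO replicates 1, 2 and 3.

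**Figure D1:**
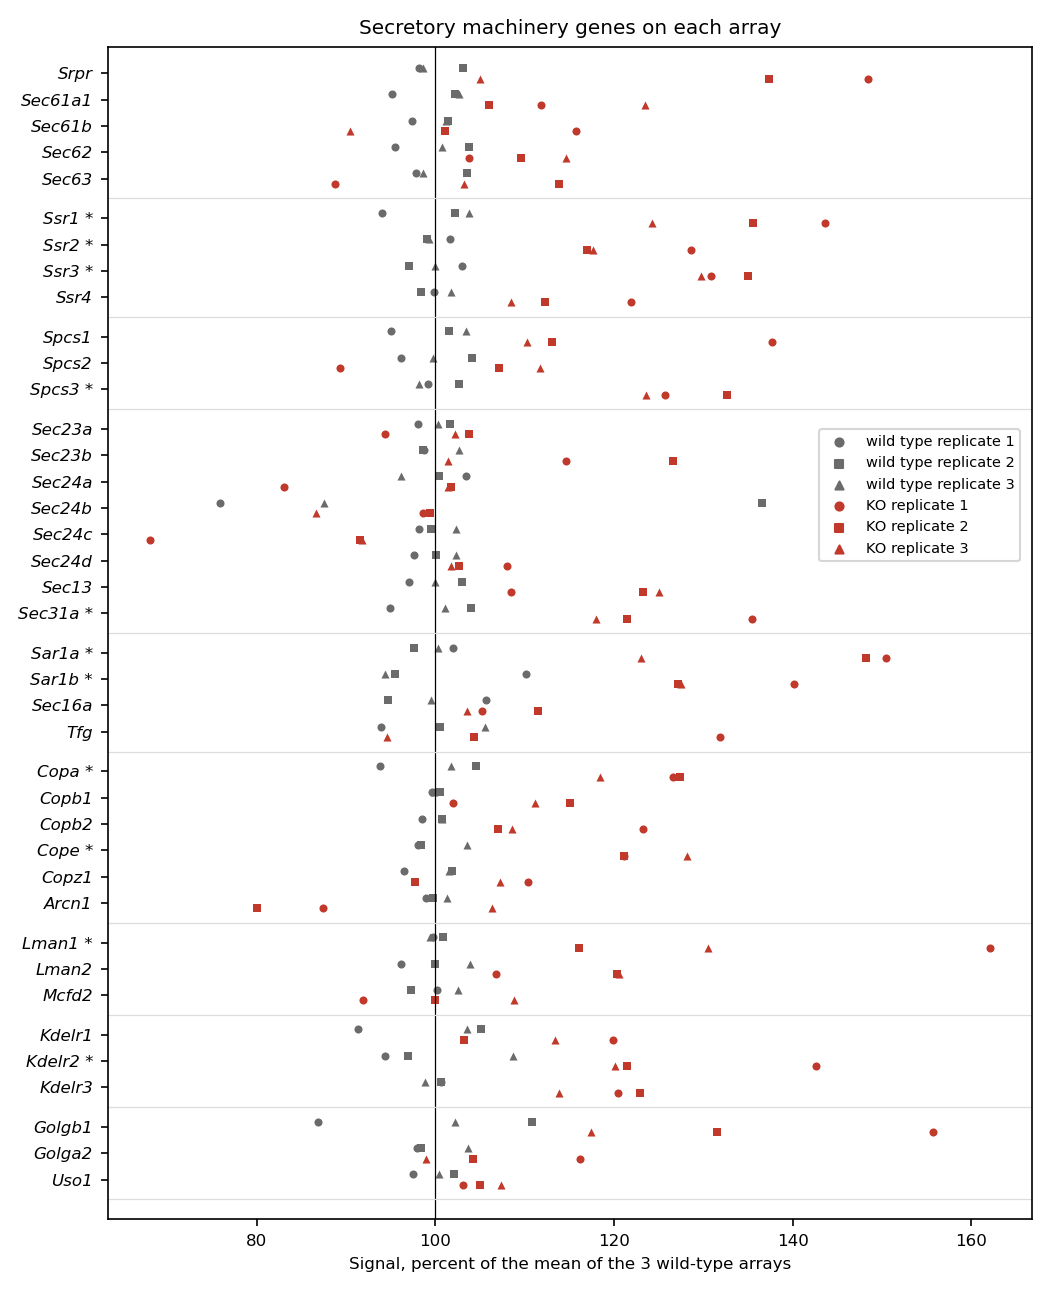
Signal of each of the 39 genes on each array, as a percent of the mean of its 3 wild-type arrays (horizontal axis, linear), with wild-type arrays in gray and KO arrays in red. Genes are grouped by role and a star marks the 11 that passed; for 23 genes all 3 red points lie to the right of all gray points.

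The number of calls depended on the arrays and the settings. Without wild-type replicate 1, 2 or 3 the count of secretory genes that passed was 3, 0 and 3, and without KO replicate 1, 2 or 3 it was 9, 5 and 14. The count over all genes fell as well when a wild-type array was left out, to 253, 226 and 266 higher from 590, and it was 560, 370 and 784 without KO replicate 1, 2 or 3. Of the 9 genes without KO replicate 1, 8 were among the 11 and the other was Sec13. Median centring of the arrays lowered the median of all genes by about as much as that of the secretory genes, to -0.084 and 0.089, and left 25 of 39 genes above 0 and 0 past the threshold, while over all genes 106 (0.834%) were higher. With a variance prior that did not follow the signal (limma without trend) 0 secretory genes passed and 121 of all genes (0.952%) were higher. With the methods' t-test 1 secretory gene passed (Ssr3) and 41 of all genes (0.322%) were higher. For none of the 11 genes did the log2 fold change turn negative with any array left out or under any of these settings.

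**Figure D2:**
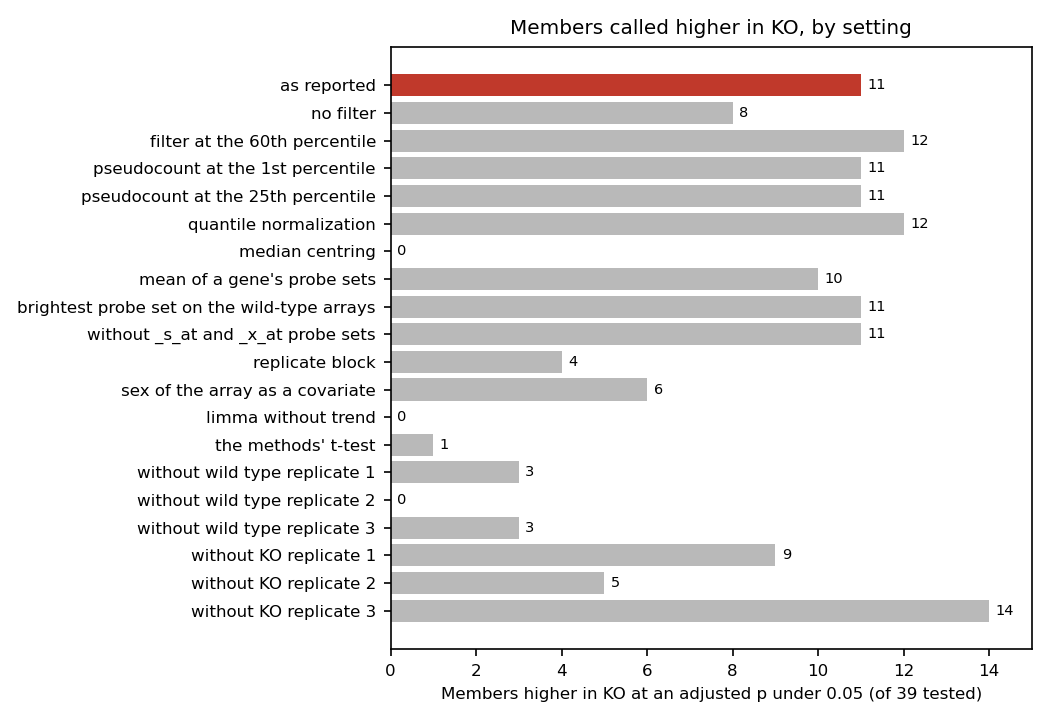
Number of the 39 tested secretory genes that were higher in KO cells at an adjusted p under 0.05 (horizontal axis, from 0), as reported (red, 11) and under each of 19 other settings (gray). The count was 0 under median centring, without limma's trend and without wild-type replicate 2, and at most 14.

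Targeting and translocation came first in the path. Of 5 tested genes of this group 0 passed in limma, and at an unadjusted p under 0.05 Srpr and Sec61a1 were the only 2. Srpr encodes the subunit of the signal recognition particle receptor that docks ribosomes at the ER. Its signal was 3550 ± 96.8 (SD, n = 3) on wild-type arrays and 4625 ± 800 (SD, n = 3) on KO arrays, and its log2 fold change was 0.37 (adjusted p = 0.0815 from limma). It passed without KO replicate 3, on which its signal was 3729 against 5271 and 4874 on the other KO arrays. Sec61b, a small subunit of the channel and the brightest of the group, was at 12301, 12811 and 12782 on wild-type arrays and at 14626, 12762 and 11424 on KO arrays. These groups overlapped, and the log2 fold change of 0.03 had a 95% interval from -0.19 to 0.24. Sec62 (0.13) and Sec63 (0.02), which help proteins through the channel after or during synthesis, did not pass. The 4 dimmer probe sets of Sec63 ran from -0.14 to 0.19 without passing.

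Sec61a1, which encodes the pore of the channel, gave different answers by probe set. Its brightest probe set read 8239, 8846 and 8880 on wild-type arrays and 9679, 9174 and 10686 on KO arrays. All KO arrays lay above all wild-type arrays, but by little, and the log2 fold change of 0.18 did not pass (adjusted p = 0.195, standard error 0.08). Of its 5 dimmer probe sets 4 passed when all 23294 probe sets were tested together. The largest difference was on 1416190_a_at, with 1600, 1477 and 1534 on wild-type arrays and 2838, 2824 and 2555 on KO arrays. The groups were far apart there, at 1.78-fold and a log2 fold change of 0.83 (adjusted p = 0.000992 over probe sets, standard error 0.08), and this probe set passed in all 17 settings that could be run on it. On 1416191_at the log2 fold change was 0.67, on 1448242_at 0.54 and on 1434986_a_at 0.53, with adjusted p-values of 0.00315, 0.0105 and 0.00437. None of these 3 passed under median centring (adjusted p up to 0.220) or without limma's trend. With the methods' t-test 1416191_at (0.0815) and 1448242_at (0.122) did not pass, and 1448242_at did not pass without wild-type replicate 3 either (0.0539). The dimmest, 1455987_at, stood at 0.03. When probe sets were averaged per gene, Sec61a1 passed.

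**Figure D3:**
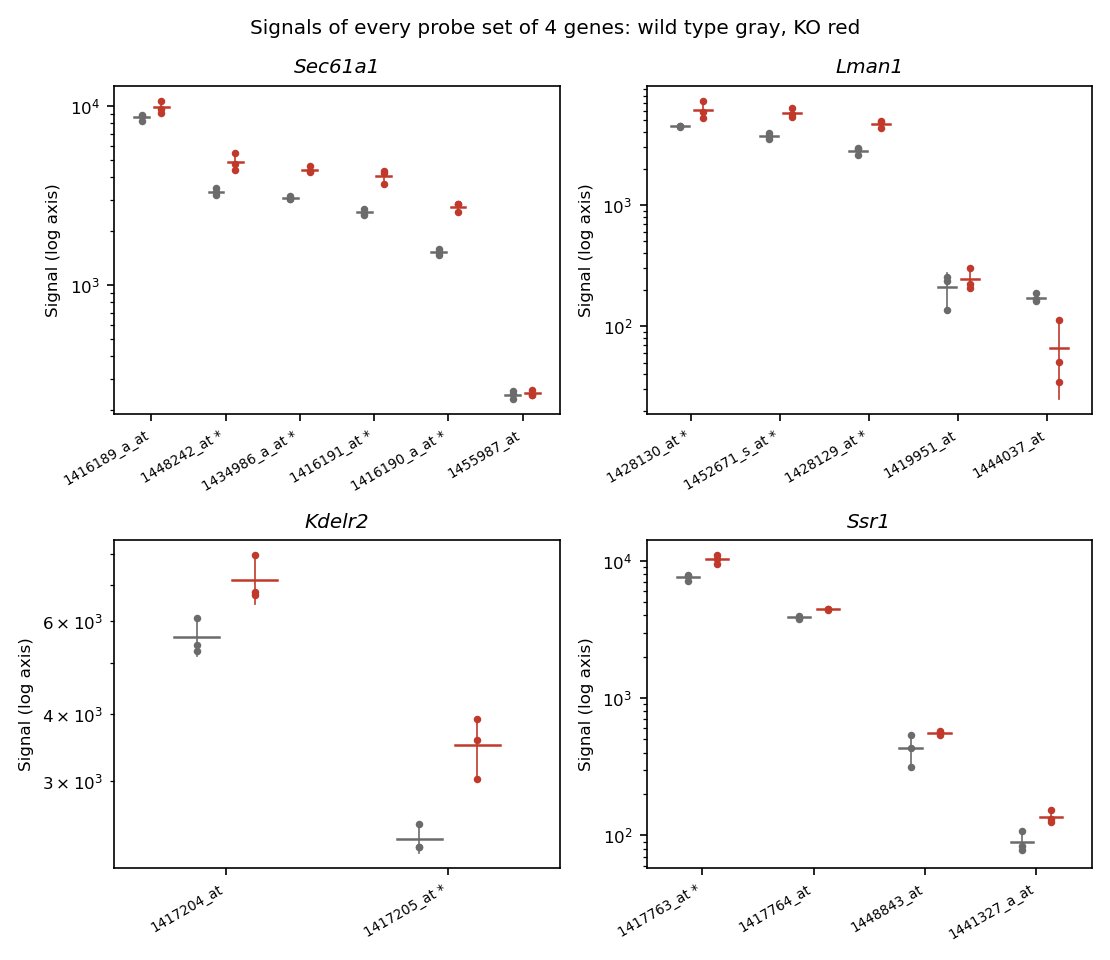
Signals (logarithmic axis) of every tested probe set of Sec61a1, Lman1, Kdelr2 and Ssr1 on the 3 wild-type (gray) and 3 KO (red) arrays, with the mean (bar) and SD (line). A star marks an adjusted p under 0.05 over all 23294 probe sets: 4 of the 5 dimmer probe sets of Sec61a1 have one while its brightest has none, and 1 dim probe set of Lman1 is lower on the KO arrays.

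The TRAP complex sits beside the channel and assists the entry of some polypeptides. Of its 4 genes 3 rose, and for all 4 every KO array lay above every wild-type array on the brightest probe set. Ssr3 was at 12179, 11477 and 11816 on wild-type arrays and at 15470, 15956 and 15337 on KO arrays. The spread within each group was small against the gap, and the log2 fold change was 0.40 (adjusted p = 0.00850, standard error 0.07). Ssr3 did not pass without wild-type replicate 2 (adjusted p = 0.0722). This probe set may bind several transcripts, and the other probe set of Ssr3 gave 0.16 with overlapping groups (adjusted p = 0.268 over probe sets). Ssr1 was at 7164, 7786 and 7907 on wild-type arrays and at 10946, 10327 and 9465 on KO arrays. The lowest KO array lay well above the highest wild-type array, and the log2 fold change was 0.43 (adjusted p = 0.0115, standard error 0.08). It did not pass without wild-type replicate 1 or 2 (adjusted p up to 0.0615), and the 3 dimmer probe sets of Ssr1 were higher on the KO arrays without passing. Ssr2 was at 4693, 4574 and 4585 on wild-type arrays and at 5938, 5403 and 5433 on KO arrays. KO replicate 1 was the highest, and the log2 fold change of 0.27 passed narrowly (adjusted p = 0.0422, standard error 0.07). It passed with KO replicate 3 left out and with none of the other 5 (adjusted p up to 0.174). Ssr4 had a log2 fold change of 0.19 and did not pass (adjusted p = 0.151). Its 2 dimmer probe sets pointed the other way, at -0.41 with all KO arrays below all wild-type arrays (adjusted p = 0.0934 over probe sets) and at -0.39 with overlapping groups, and neither passed.

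Signal peptidase removes the signal peptide as a chain enters the ER, and 1 of its 3 subunit genes tested here rose. Spcs3, an accessory subunit needed for cleavage, was at 3799, 3933 and 3763 on wild-type arrays and at 4815, 5084 and 4735 on KO arrays. The groups were well apart, and the log2 fold change was 0.35 (adjusted p = 0.0147, standard error 0.07). Spcs3 lost its call when any single wild-type array or KO replicate 2 was left out (adjusted p up to 0.0732). Spcs1, the brightest of the group, was at 12666, 13540 and 13792 on wild-type arrays and at 18362, 15070 and 14703 on KO arrays. KO replicate 1 was far above the other KO arrays, and the log2 fold change of 0.26 did not pass (adjusted p = 0.128). Its 2 dimmer probe sets stood at -0.02 and -0.39 with overlapping groups. Spcs2 had overlapping groups and a log2 fold change of 0.03.

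Before the coats, the start-site stretches of some of their genes are shown, because they hold motifs tied in earlier work to factors that regulate secretory genes. RefSeq windows of 300 bases, from 250 before to 50 after the annotated start (GRCm38.p6), were found for 33 of the 40 genes. They were searched on both strands for the UPRE (TGACGTGG), which Atf6 and spliced Xbp1 recognize, and for the CRE (TGACGTCA), bound by CREB family factors. Both share the bases TGACGT. The ERSE, which is CCAAT and CCACG with 9 bases between them, was also searched. The motifs were picked when the expression values were known. A UPRE lay in 5 of 33 windows (15.2%), against 0.714% of 27025 genes with a window and 1.05% of the 10270 tested genes with one. None of the 7 genes that rose and had a window held it. A CRE lay in 1 of the 33 (3.03%), in Cope, against 2.03% of all genes and 3.48% of tested genes, and the ERSE lay in 0 of 33, against 0.137% of all genes. A match is a description of letters, not a binding site. In the stretches below, written 5′ to 3′ along each gene's strand, capitals mark the motif, or its complement CCACGTCA where it lies on the opposite strand:
Sec23a: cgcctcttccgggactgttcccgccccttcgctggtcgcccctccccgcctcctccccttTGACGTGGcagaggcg
Sec24d: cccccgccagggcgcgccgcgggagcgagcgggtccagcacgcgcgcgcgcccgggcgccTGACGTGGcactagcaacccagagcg
Copb1: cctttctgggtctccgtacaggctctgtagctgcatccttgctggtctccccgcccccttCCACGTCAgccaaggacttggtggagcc
Copb2: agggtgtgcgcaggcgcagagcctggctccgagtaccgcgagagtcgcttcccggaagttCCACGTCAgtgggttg
Cope: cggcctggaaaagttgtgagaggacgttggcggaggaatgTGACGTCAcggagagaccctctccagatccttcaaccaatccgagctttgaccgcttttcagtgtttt
Kdelr3: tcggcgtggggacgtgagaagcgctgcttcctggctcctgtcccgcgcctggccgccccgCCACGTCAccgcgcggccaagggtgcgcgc

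The Sec23a stretch is chr12:59011996-59012071 (minus strand), with the motif beginning at base 7 of the transcript. The Sec24d stretch is chr3:123267410-123267495 (plus strand), with its motif beginning 26 bases before the start. The other 4 are Copb1 at chr7:114254681-114254768 (minus strand, 28 bases before), Copb2 at chr9:98563664-98563739 (plus strand, 7 bases before), Cope at chr8:70302517-70302624 (plus strand, 210 bases before) and Kdelr3 at chr15:79516318-79516407 (plus strand, 30 bases before). Of these 6 genes Cope passed in the comparison of KO and wild type, and the 5 genes with a UPRE did not.

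The COPII coat buds vesicles from the ER. Of 8 coat genes 1 rose and 7 did not pass, with a median log2 fold change of 0.03. Sec31a encodes the outer coat rod. Its signal was 3149, 3449 and 3351 on wild-type arrays and 4491, 4026 and 3911 on KO arrays. The groups did not overlap, and the log2 fold change was 0.32 (adjusted p = 0.0365, standard error 0.08). It kept its call only without KO replicate 3 (adjusted p up to 0.147 without another array). Sec13, its partner in the outer coat, was higher on every KO array with a log2 fold change of 0.25, and did not pass (adjusted p = 0.0837).

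No inner coat gene passed. Sec23a, whose gene stretch above holds a UPRE and which is a known target of the factor Creb3l2 in cartilage, was at 6398, 6639 and 6548 on wild-type arrays and at 6161, 6773 and 6675 on KO arrays. The groups overlapped, and the log2 fold change was 0.00 with a 95% interval from -0.16 to 0.16. Its paralogue Sec23b had 0.19 (adjusted p = 0.240). The cargo-binding subunits Sec24a (-0.07), Sec24b (-0.03), Sec24c (-0.27) and Sec24d (0.06) had log2 fold changes on both sides of 0, and a dimmer probe set of Sec24b stood at 0.23 with overlapping groups. Sec24c was at 2465, 2499 and 2567 on wild-type arrays and at 1708, 2300 and 2304 on KO arrays. All KO arrays were below the wild-type arrays, KO replicate 1 most, and the difference did not pass (adjusted p = 0.180).

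COPII assembly begins when the small GTPase Sar1 enters the ER membrane, and both Sar1 genes rose, as 2 of the 4 assembly genes. Sar1a was at 5414, 5181 and 5326 on wild-type arrays and at 7983, 7863 and 6526 on KO arrays. KO replicate 3 was lower than the other KO arrays but above every wild-type array. The log2 fold change of 0.48 was the largest of the 39 genes (1.41-fold, adjusted p = 0.00935, standard error 0.09). Sar1a did not pass without wild-type replicate 2 (0.0578), and its other probe set stood at 0.20 (adjusted p = 0.223 over probe sets). Sar1b was at 4439, 3850 and 3805 on wild-type arrays and at 5652, 5126 and 5139 on KO arrays. The first array of each group was the highest, the groups did not overlap, and the log2 fold change was 0.40 (adjusted p = 0.0193, standard error 0.09). It did not pass without wild-type replicate 2 or 3 (adjusted p up to 0.106). Sec16a, a scaffold of ER exit sites, and Tfg, which clusters there, had 0.09 and 0.13 with overlapping groups. A dimmer probe set of Sec16a stood at 0.36 with all KO arrays above all wild-type arrays, just short of the threshold (adjusted p = 0.0509 over probe sets), and Sec16a passed when probe sets that may bind several transcripts were left out.

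**Figure D4:**
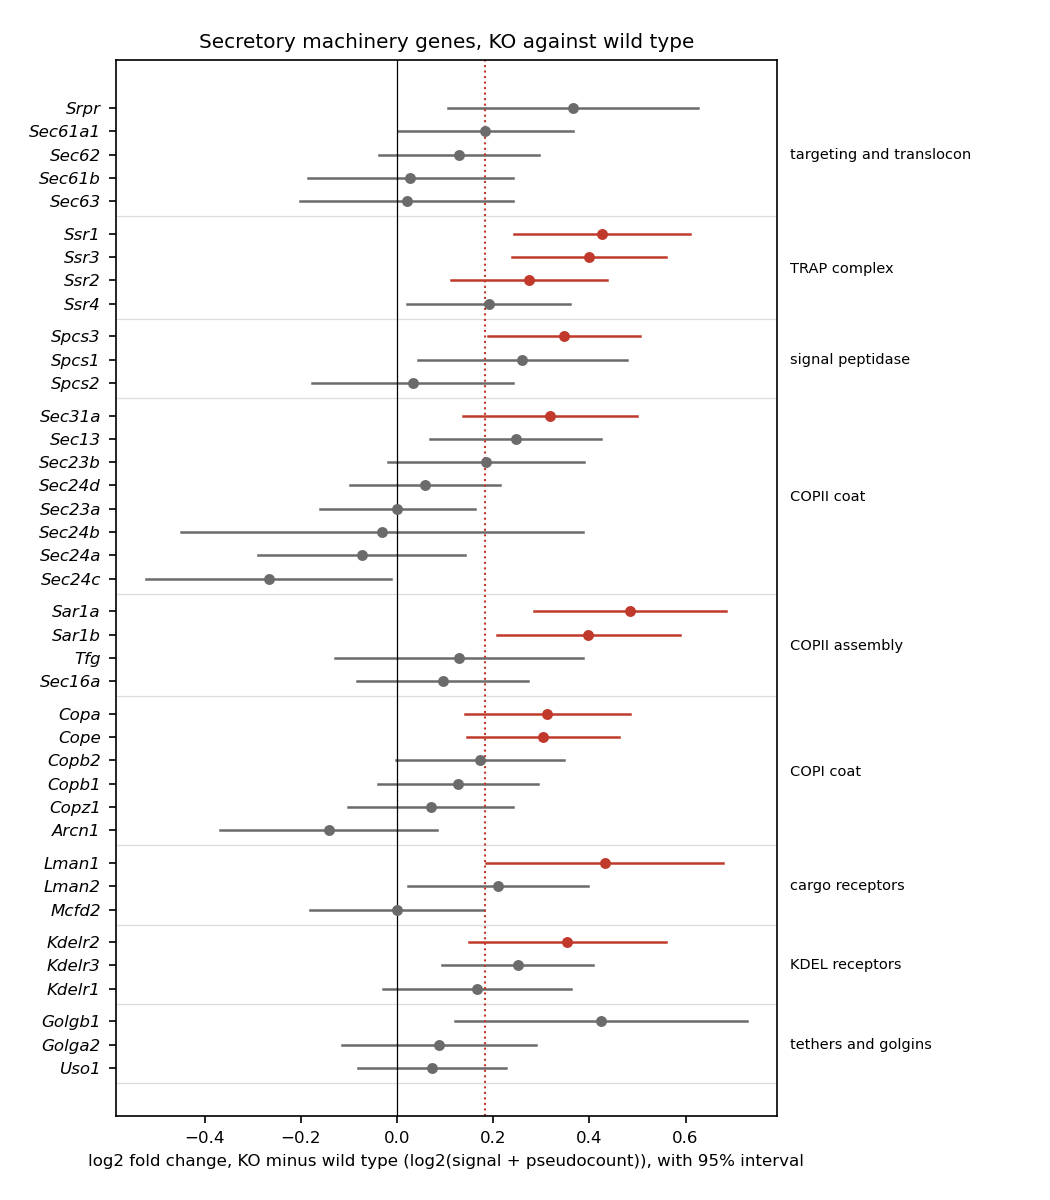
Log2 fold change of each of the 39 genes, KO minus wild type of log2(signal + pseudocount), with its 95% interval from limma (lines), grouped by role. The 11 genes that passed are red, the dotted line is the median of the 39 genes (0.18), and of the inner-coat genes Sec23b lies at 0.19 while Sec23a and Sec24a to Sec24d lie between -0.27 and 0.06.

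The COPI coat forms vesicles that return from the Golgi to the ER. Of its 6 genes listed 2 rose. Copa encodes the alpha subunit and was at 8207, 9150 and 8902 on wild-type arrays and at 11084, 11150 and 10366 on KO arrays. The groups did not overlap, and the log2 fold change was 0.31 (adjusted p = 0.0324, standard error 0.08). Copa lost its call when any single wild-type array or KO replicate 2 was left out (adjusted p up to 0.137), and its much dimmer second probe set stood at -0.11 with overlapping groups. When probe sets were averaged per gene, Copa stood at 0.10 and did not pass (adjusted p = 0.631). Cope, the epsilon subunit, was at 6098, 6125 and 6443 on wild-type arrays and at 7536, 7533 and 7976 on KO arrays. Each group was tight, and the log2 fold change was 0.30 (adjusted p = 0.0264, standard error 0.07). The same omissions ended the call of Cope (adjusted p up to 0.137). Copb2 (0.17, adjusted p = 0.205) and Copb1 (0.13, adjusted p = 0.326), subunits whose start-site stretches hold a UPRE, were above every wild-type array on every KO array without passing. Copz1 had 0.07, and Arcn1, the delta subunit, was the only gene of the group below 0, with -0.14 and overlapping groups. Its 2 dimmer probe sets stood at 0.12 and 0.18, each with all KO arrays above all wild-type arrays, and neither passed.

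Cargo receptors select soluble proteins for export, and Lman1, a lectin that carries coagulation factors and other glycoproteins, was the 1 of 3 that rose. Lman1 was at 4455, 4510 and 4442 on wild-type arrays and at 7243, 5190 and 5834 on KO arrays. KO replicate 1 was far above the other KO arrays, and the log2 fold change was 0.43 (adjusted p = 0.0375, standard error 0.11). It passed with any single KO array left out, and lost its call with any single wild-type array left out (adjusted p up to 0.125). The next 2 probe sets of Lman1 differed more. On 1428129_at the log2 fold change was 0.74 (adjusted p = 0.00196 over probe sets) and on 1452671_s_at 0.64 (adjusted p = 0.00371), and KO replicate 1 was the lowest KO array on both. Both passed with each of the 6 arrays left out in turn. They did not pass under median centring, without limma's trend or with the methods' t-test. The 2 dimmest disagreed, at 0.25 and -1.42, and neither passed. When probe sets were averaged per gene, Lman1 stood at 0.13 and did not pass (adjusted p = 0.450). Mcfd2, the partner of Lman1 in that export, was at 0.00 with a 95% interval from -0.18 to 0.18, and the lectin Lman2 at 0.21 (adjusted p = 0.150).

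KDEL receptors bind escaped ER chaperones in the Golgi and return them with COPI. Kdelr2 was the 1 of 3 that rose, from 5269, 5409 and 6068 on wild-type arrays to 7963, 6778 and 6702 on KO arrays. The groups did not overlap, and the log2 fold change was 0.35 (adjusted p = 0.0397, standard error 0.09). It passed with KO replicate 3 left out and with none of the other 5 (adjusted p up to 0.164). Its second probe set, 1417205_at, had a log2 fold change of 0.58 (adjusted p = 0.0110 over probe sets, reaching 0.0563 when wild-type replicate 1 or 3 was left out). It did not pass under median centring (0.143), without limma's trend (0.0991) or with the methods' t-test (0.133). Kdelr3 was at 3995, 3994 and 3924 on wild-type arrays and at 4784, 4880 and 4521 on KO arrays. The groups were clearly apart, and the log2 fold change of 0.25 fell just short of the threshold (adjusted p = 0.0521, standard error 0.07). Kdelr1 overlapped between groups, at 0.17.

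Tethers and golgins hold vesicles at the Golgi before fusion, and 0 of 3 passed in limma, with 1 (Golgb1) at an unadjusted p under 0.05. Uso1, the tether p115, was at 3644, 3819 and 3755 on wild-type arrays and at 3854, 3926 and 4014 on KO arrays. The KO arrays lay just above the wild-type arrays, and the log2 fold change was 0.07 with a 95% interval from -0.08 to 0.23. Golgb1, which encodes giantin and is known to be needed for cartilage formation, was at 517, 659 and 608 on wild-type arrays and at 926, 782 and 699 on KO arrays. The groups did not overlap, and the log2 fold change of 0.42 did not pass (adjusted p = 0.0824, standard error 0.14). Golga2, the golgin GM130, was at 0.09 (adjusted p = 0.597).

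Other genes of the same pathways were taken from a list of 121, of which 115 were tested. In this list 14 rose, 2 fell and 99 did not pass, with a median log2 fold change of 0.09. Over all tested genes 4.64% were higher and 4.68% lower. The counts for the parts of the list below are to be read against the same shares. In translocation, 1 of 22 tested genes rose, which is near the share of all genes. It was Emc7 of the ER membrane complex, by 0.30 (adjusted p = 0.0223). In oligosaccharyltransferase, the enzyme that attaches sugar chains beside the channel, 3 of 12 rose. These were Ost4 (0.38), Dad1 (0.32) and Rpn1 (0.31). These 4 genes all lost their calls when any single wild-type array or KO replicate 2 was left out (adjusted p up to 0.162), and Rpn1 also without KO replicate 3 (0.0611).

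Among 19 tested genes of COPII and cargo export outside the 40, 3 rose and 2 fell. Sec16b, a paralogue of Sec16a at ER exit sites, was at 644, 683 and 814 on wild-type arrays and at 1207, 1186 and 1156 on KO arrays. The groups were far apart, and the log2 fold change was 0.73 (adjusted p = 0.00402, standard error 0.11), and Sec16b passed with each array left out. Yif1a and Yif1b, membrane proteins that cycle between the ER and Golgi, rose by 0.57 and 0.41 (adjusted p = 0.0564 for Yif1a when wild-type replicate 2 was left out, and at most 0.0611 for Yif1b when replicate 1 or 2 was). Pef1, a calcium-binding adaptor that acts on Sec31a, fell by 0.45, and lost its call with any single wild-type array left out (adjusted p up to 0.114). Sec23ip, which binds Sec23a, fell by 0.29 and is named for being the only other that fell; it passed without KO replicate 3 alone (adjusted p up to 0.171 otherwise).

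Among 18 tested genes of COPI and the p24 cargo adaptors outside the 40, 4 rose. Tmed9, a p24 protein of the early Golgi, was at 5253, 6222 and 5575 on wild-type arrays and at 7586, 10733 and 9885 on KO arrays. KO replicate 1 was the lowest KO array, and the log2 fold change was 0.71 (adjusted p = 0.00751, standard error 0.12). Copz2, the second zeta subunit, was at 3641, 3831 and 4039 on wild-type arrays and at 6096, 5271 and 5291 on KO arrays. The groups did not overlap, and its log2 fold change was 0.53 (adjusted p = 0.00511, standard error 0.08), while that of its paralogue Copz1 was 0.07. Tmed9 and Copz2 passed with each array left out. The gamma subunits Copg1 (0.36) and Copg2 (0.47) also rose, Copg1 losing its call without wild-type replicate 2 or 3 (adjusted p up to 0.0753) and Copg2 with any single array left out but wild-type replicate 3 (up to 0.175). Of 35 tested SNAREs, Rabs and other tethers between ER and Golgi 0 passed in limma. The 2 with the lowest p were Trappc2 (0.25, adjusted p = 0.0732) and Golga5 (0.24, adjusted p = 0.0986).

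Of 9 tested regulators of secretory capacity 3 rose, 0 fell and all 9 had a log2 fold change above 0. Creb3l1 encodes a membrane-bound transcription factor known to drive collagen secretion in bone. Its signal was 683, 835 and 825 on wild-type arrays and 1583, 1353 and 1187 on KO arrays. The groups were far apart, and the log2 fold change was 0.81 (adjusted p = 0.00495, standard error 0.13). Ern1, the ER stress sensor that splices the Xbp1 message, was at 573, 571 and 542 on wild-type arrays and at 974, 904 and 863 on KO arrays. Both groups were tight, and the log2 fold change was 0.69 (adjusted p = 0.00376, standard error 0.10). Creb3l1 and Ern1 passed with each array left out. Creb3l2, the related factor of cartilage, was at 1240, 1456 and 1422 on wild-type arrays and at 2302, 1873 and 1762 on KO arrays. The groups did not overlap, and the log2 fold change of 0.52 passed (adjusted p = 0.0204, standard error 0.11), but not with any single wild-type array left out (up to 0.0887). Xbp1 itself, for which the array does not tell the spliced from the unspliced message, was at 0.16 (adjusted p = 0.248), and Atf6b at 0.32 (adjusted p = 0.125). Atf6, Creb3 and the proteases Mbtps1 and Mbtps2 did not pass. Whether any of these regulators acted on the secretory genes was not tested.

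**Figure D5:**
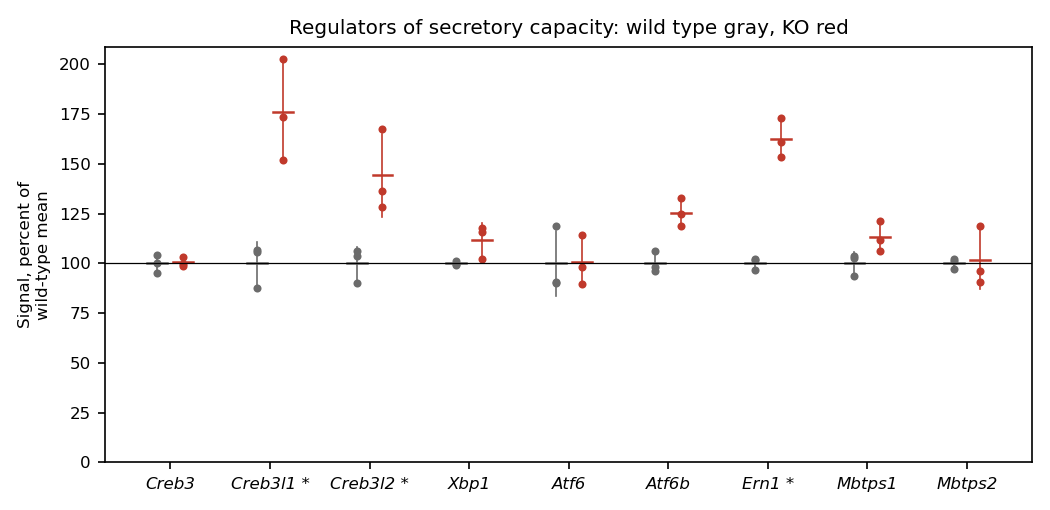
Signals of 9 regulators of secretory capacity on each array, as a percent of the mean of the 3 wild-type arrays (axis from 0), with wild-type arrays in gray and KO arrays in red, means as bars and SD as lines. A star marks the 3 that passed: Creb3l1, Creb3l2 and Ern1 lie above the wild-type arrays on every KO array, whereas Creb3, Atf6 and Mbtps2 overlap.

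Across all probe sets of the secretory genes, 39 besides the brightest of each gene were bright enough to be tested, and 3 were not. Of the 39, 7 rose, 0 fell and 31 had a log2 fold change above 0. All 7 probe sets that rose belonged to Sec61a1, Lman1 and Kdelr2.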

How the data were processed

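Gene expression was measured on 6 Affymetrix arrays, 3 wild type and 3 Slc39a13-KO. The deposited intensity values are on a linear scale; the authors' processing notes name MAS5 without a version, while their methods name gcRMA. Each array has a trimmed mean of 500.003 (2% off each end) and unequal quantiles, which gcRMA would have equalized, so the authors' scaling was kept. Of 45101 probe sets, the annotation gives 34945 one symbol (controls left out), 932 several and 9211 none. The 64 controls are not a separate class, since they overlap in part with those not among the 34945. Entrez identifiers matched 34741 to a gene table, which changed 0 symbols, and 1 gene of the lists was matched by synonym. Probe sets with 1 gene and a mean log2(signal + 7.96) at or above the 40th percentile (5.80) were kept (23294). The pseudocount was set at the 10th percentile over the whole table. The brightest probe set by mean signal stood for each of 12715 genes.

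The test was limma's (version 3.58.1, R 4.3.3; lmFit, eBayes with trend), KO minus wild type, without covariates, with Benjamini-Hochberg adjustment over all genes. Other probe sets were tested over all 23294. Precision is limited by 3 arrays per group. Members and lists were chosen with earlier results of these data known. Values on every array are given for members that passed and the brightest member of each group; of other lists, up to 4 genes past the threshold with the largest change are named, or 2 with the lowest p where none passed. Further values, such as those of Sec24c, Golgb1 and Kdelr3, were chosen after they were seen. Alternatives were other filters (none, 60th percentile), pseudocounts (1st and 25th percentile), median centring, quantile normalization, probe sets averaged per gene, the brightest on wild-type arrays, no probe sets that may bind several transcripts, a replicate block, sex of the array, limma without trend, the methods' t-test and each array left out. The brightest 10% of genes as background and the settings of other probe sets were added after the data were seen. Motifs were searched with Python 3.11.15.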

Additional observations from a re-analysis of the deposited data

How the results depend on the processing

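The 11 secretory genes that were higher in KO cells became 0 under median centring, 0 without limma's trend, 1 with the methods' t-test, 6 with the sex of the array as a covariate and 4 with the replicate block. The share of all genes that were higher fell from 4.64% to 0.834%, 0.952%, 0.322%, 3.59% and 2.71% in these settings. With each array left out the count ran from 0 (without wild-type replicate 2) to 14 (without KO replicate 3). The share of all genes that were higher was 1.78% and 6.17% in these 2 fits. At an unadjusted p under 0.05, 4 secretory genes were higher under median centring, 15 without limma's trend and 15 without wild-type replicate 2. The shares of all genes at that unadjusted threshold are not given here. At the adjusted threshold the count was 8 to 12 under the other settings. The share of all genes that were higher ran there from 2.92% with no filter (8 secretory genes) to 6.69% with the 60th percentile filter (12). Under quantile normalization it was 4.73% (also 12). In all settings 0 secretory genes passed as lower. The median log2 fold change of 0.18 became 0.089 under median centring, where the median of all genes was -0.084, and 0.15 when probe sets were averaged per gene, and it ran from 0.16 to 0.20 with each array left out. Of the 11 genes, Copa (-0.11) and Lman1 (-1.42) had another probe set in the opposite direction. Of the genes without a call, Ssr4, Spcs1, Sec63, Sec24b and Arcn1 did. The cause of these changes was not tested. The deviations of same-numbered arrays from their group means correlated at 0.04, 0.01 and -0.07, and those of differently numbered arrays at -0.08 to 0.07. Whether same-numbered arrays shared a preparation was not tested. With 3 arrays per group the standard errors of the 39 genes ran from 0.07 to 0.19 on the log2 scale, which limits how small a difference can be told from 0.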
